A study of Mus musculus with 143 samples.

Results

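Small nucleolar RNAs (snoRNAs) and the long noncoding host genes that carry them were examined in mouse oocytes lacking the RNA exosome ribonucleases DIS3 or EXOSC10. Members were every gene whose symbol starts with Snord, Snora or Snhg, plus Gas5. This gave 157 genes, among 55573 gene IDs in the poly(A) count files and 55487 in the RiboMinus count files, and all 157 were present in both. They comprised 99 box C/D snoRNA genes (Snord), 42 box H/ACA snoRNA genes (Snora) and 16 host genes (15 Snhg symbols, Snhg7os among them, and Gas5).

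Every library came from 1 mouse oocyte. In the poly(A) libraries, fully grown oocytes with an intact germinal vesicle (GV), oocytes after 3 h of culture (GV3h) and ovulated metaphase II eggs (MII) were each taken from controls (8 libraries per stage) and from Dis3 conditional knockouts (Dis3 cKO; 15, 16 and 16 libraries). RiboMinus libraries, in which rRNA was removed and random hexamers primed the cDNA, held 8 oocytes per group. Their groups were adult GV control, adult GV Dis3 cKO, and control, Dis3 cKO, Exosc10 cKO and double knockout (dcKO, both genes) of postnatal day 20 (p20). The mutant mice had been made with CRISPR/Cas9, per the labels. The GV and GV3h oocytes were dissected from ovaries and the MII eggs from oviducts of superovulated females. The labels give neither the exact genotype of the controls nor the promoter that drives the Cre in the knockouts, and whether the oocytes of a group came from 1 or several animals is stated for no poly(A) group. Titles of RiboMinus libraries carry 2 tags per group, with 4 oocytes under each, and the labels do not say what a tag is. P-values therefore measure the spread between oocytes.

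A snoRNA is a short nuclear RNA that guides a modification enzyme to a base-paired target. Box C/D snoRNAs direct ribose methylation and box H/ACA snoRNAs direct pseudouridylation, mainly of ribosomal RNA, and a few, such as Snord13 and Snord118, act in rRNA acetylation or processing. Most mammalian snoRNAs are cut out of introns of a host transcript, and the nuclear exosome trims their ends and degrades precursors that carry a short poly(A) tail. Some hosts encode ribosomal or nucleolar proteins, while the Snhg genes and Gas5 have spliced exons with little or no coding capacity. Growing oocytes build up rRNA and ribosomes, and transcription has largely stopped by the end of growth.

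The poly(A) libraries held 4843964 to 15412200 gene counts each and the RiboMinus libraries 8492102 to 35429028, and no 2 libraries held identical counts. The targeted genes followed the labels: the median Dis3 level was 12.6 counts per 1000000 gene counts (CPM) in GV controls against 2.99 in Dis3 cKO, and 15.3 against 1.88 CPM in adult RiboMinus oocytes. The median of Exosc10 was 115 CPM in p20 controls against 5.48 in dcKO. All 10 oocyte markers on a fixed list averaged over 1 CPM in every group. A list of 10 granulosa and cumulus cell genes summed to between 45.1 and 197 CPM per library, and its member Ptx3 was listed at 0 in all groups except p20 Dis3 cKO.

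Changes are relative to all RNAs of a library. Scaling to the ERCC RNAs in place of all genes moved the share of higher calls among all calls from 61.95% to 35.3% at GV, from 64.8% to 89.7% at MII, from 55.9% to 10.2% in adult RiboMinus Dis3 cKO, from 49.0% to 12.8% in p20 Dis3 cKO and from 50.5% to 73.1% for dcKO against p20 Dis3 cKO. Between controls it moved this share from 38.8% to 0.380% for MII against GV, from 42.3% to 55.9% for GV3h against GV and from 45.6% to 0.484% for adult against p20 oocytes. For the Dis3 effect at MII and at GV3h against that at GV it moved from 70.5% to 97.7% and from 67.3% to 90.0%.

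The 2 classes differed in how well they could be measured. In 71 poly(A) libraries the 141 snoRNA genes together held 3433 counts, or 0.000509% of all gene counts, with a median of 6 counts per gene over all libraries. Of them 107 had at least 1 count, and 137 had fewer than 100 in all. In 48 RiboMinus libraries 62 of the 141 had a count, together 32991 counts (0.00355%). The 16 host genes held 71874 counts (0.0107%) in poly(A) and 41528 (0.00447%) in RiboMinus data, and each of them was detected in both. The annotated snoRNAs are 28 to 221 bases long, with a median of 91.

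The remaining 79 snoRNAs were listed at 0 in all 48 RiboMinus libraries, although 50 of these had counts in the poly(A) files, 725 in all. Snord33 was at 0 in RiboMinus data while Snord32a and Snord34, which lie in the same ribosomal protein gene Rpl13a, had 3805 and 1475 counts there. Snora7a had 126 poly(A) counts and was listed at 0 in all RiboMinus libraries. How reads that overlap more than 1 gene were counted is not given in the sources used here. A listed 0 is therefore given as such and not as absence of the RNA. Both IDs of each of the duplicated symbols Snord80, Snora16a and Snora43 were at 0 in RiboMinus data, and of the 17 Snord116-like genes of the Snhg14 cluster 1 had 2 counts in RiboMinus and none had a count in poly(A) data.

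By position in RefSeq (GRCm38.p6), 121 of 133 annotated snoRNAs lay inside 1 other gene and 9 inside 2. Snord13, Snord118 and Snord89 lay inside none, and 8 snoRNAs of the count files were not in the RefSeq table. A total of 38 lay inside one of the 16 member hosts. Snora73a and Snora73b lay in Snhg3, Snord87 in Snhg6, Snora24 in Snhg8, Snora78 in Snhg9 and Snord123 in Snhg18. Of the 16 hosts, 7 overlapped another annotated gene that is no snoRNA, for example Snhg9 with Rps2, Snhg14 with Snrpn and Ube3a, Snhg10 with Scarna13 and Snhg6 with Mcmdc2. Counts of such genes are uncertain as far as reads were shared, since no source used here says whether reads were counted by strand.

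Promoters are shown for 5 hosts that rose in Dis3 cKO oocytes (values below), from 250 bases before to 50 after the annotated start, on the minus strand in each case, from RefSeq in the build GRCm38.p6. RefSeq promoter sequences were found for 15 of the 16 hosts. Snhg10 is read at chr12:105032230-105032529, Snhg3 at chr4:132353637-132353936, Snhg8 at chr3:123508287-123508586, Snhg9 at chr17:24719916-24720215 and Snhg18 at chr15:32244613-32244912. Capitals mark matches on either strand to TATAAA (the TATA box), to CCAAT (the CCAAT box), to CCGGAAG (a motif of ETS factors) or to CACGTG (the E-box of MYC and USF factors).
Snhg10: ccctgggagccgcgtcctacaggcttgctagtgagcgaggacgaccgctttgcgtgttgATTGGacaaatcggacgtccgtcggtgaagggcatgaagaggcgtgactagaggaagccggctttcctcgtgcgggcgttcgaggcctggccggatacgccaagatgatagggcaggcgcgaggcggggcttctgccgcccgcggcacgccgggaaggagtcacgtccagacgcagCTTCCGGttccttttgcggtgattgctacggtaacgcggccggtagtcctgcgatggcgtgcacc
Snhg3: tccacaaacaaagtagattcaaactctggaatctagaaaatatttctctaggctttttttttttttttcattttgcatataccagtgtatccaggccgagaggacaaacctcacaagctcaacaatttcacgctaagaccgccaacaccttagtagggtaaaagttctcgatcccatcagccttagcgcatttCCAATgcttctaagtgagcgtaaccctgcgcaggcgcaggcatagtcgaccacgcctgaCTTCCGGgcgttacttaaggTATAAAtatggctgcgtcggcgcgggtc
Snhg8: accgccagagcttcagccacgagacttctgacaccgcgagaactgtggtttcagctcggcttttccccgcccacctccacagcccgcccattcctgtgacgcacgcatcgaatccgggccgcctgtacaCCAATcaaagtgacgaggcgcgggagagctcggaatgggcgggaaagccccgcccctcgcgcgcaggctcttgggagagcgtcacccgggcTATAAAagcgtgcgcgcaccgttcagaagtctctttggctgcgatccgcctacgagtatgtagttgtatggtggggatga
Snhg9: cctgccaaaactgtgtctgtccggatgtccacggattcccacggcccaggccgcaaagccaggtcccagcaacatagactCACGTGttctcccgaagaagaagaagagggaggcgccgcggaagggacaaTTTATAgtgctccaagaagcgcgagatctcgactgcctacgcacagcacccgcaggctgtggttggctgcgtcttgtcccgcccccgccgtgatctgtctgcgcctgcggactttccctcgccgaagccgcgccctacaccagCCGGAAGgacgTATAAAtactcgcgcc
Snhg18: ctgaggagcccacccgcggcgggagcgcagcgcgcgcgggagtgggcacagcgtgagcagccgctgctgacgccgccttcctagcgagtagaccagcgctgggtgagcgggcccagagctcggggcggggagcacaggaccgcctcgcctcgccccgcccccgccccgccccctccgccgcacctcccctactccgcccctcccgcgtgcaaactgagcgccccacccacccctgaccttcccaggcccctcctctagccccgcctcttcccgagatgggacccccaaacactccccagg
The 15 hosts have 19 promoters in the table. TATAAA was found in 5 of these 19 and in 13.6% of all 32851 mouse promoters, CCAAT in 5 and 37.4%, CCGGAAG in 4 and 8.86%, and CACGTG in 2 and 7.15%. GGGCGG, not marked, was found in 11 of the 19 and in 35.7% of all promoters. Snhg3, Snhg8 and Snhg9 hold TATAAA in these windows, and Snhg10 and Snhg18 do not. A match describes the letters only.

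Some host RNAs were called higher in the poly(A) libraries of Dis3 cKO oocytes at each of the 3 stages, and none was called lower. At GV, 7 of the 13 hosts tested rose and none fell: Snhg3, Snhg8, Snhg11, Snhg10, Snhg9, Snhg14 and Snhg18, by 0.93 to 2.42 on the log2 scale. Of all 17389 genes tested, 13.6% were called higher and 8.33% lower. The median log2 fold change of the 13 hosts was 1.22, against 0.04 over all genes. It includes the 3 low hosts named next, so nothing is read from it. Of the 13, Snhg8, Snhg9 and Snhg20 averaged under 0.5 CPM in controls and passed the filter through groups where they were higher. Among the 10 hosts at or above that mean, 5 rose at GV and 4 at GV3h, and at MII 6 of the 8 at or above it. Snhg12, Snhg17 and Snhg7os were too low to pass the filter on low counts. A share of counts does not tell more synthesis from slower decay.

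**Figure D1:**
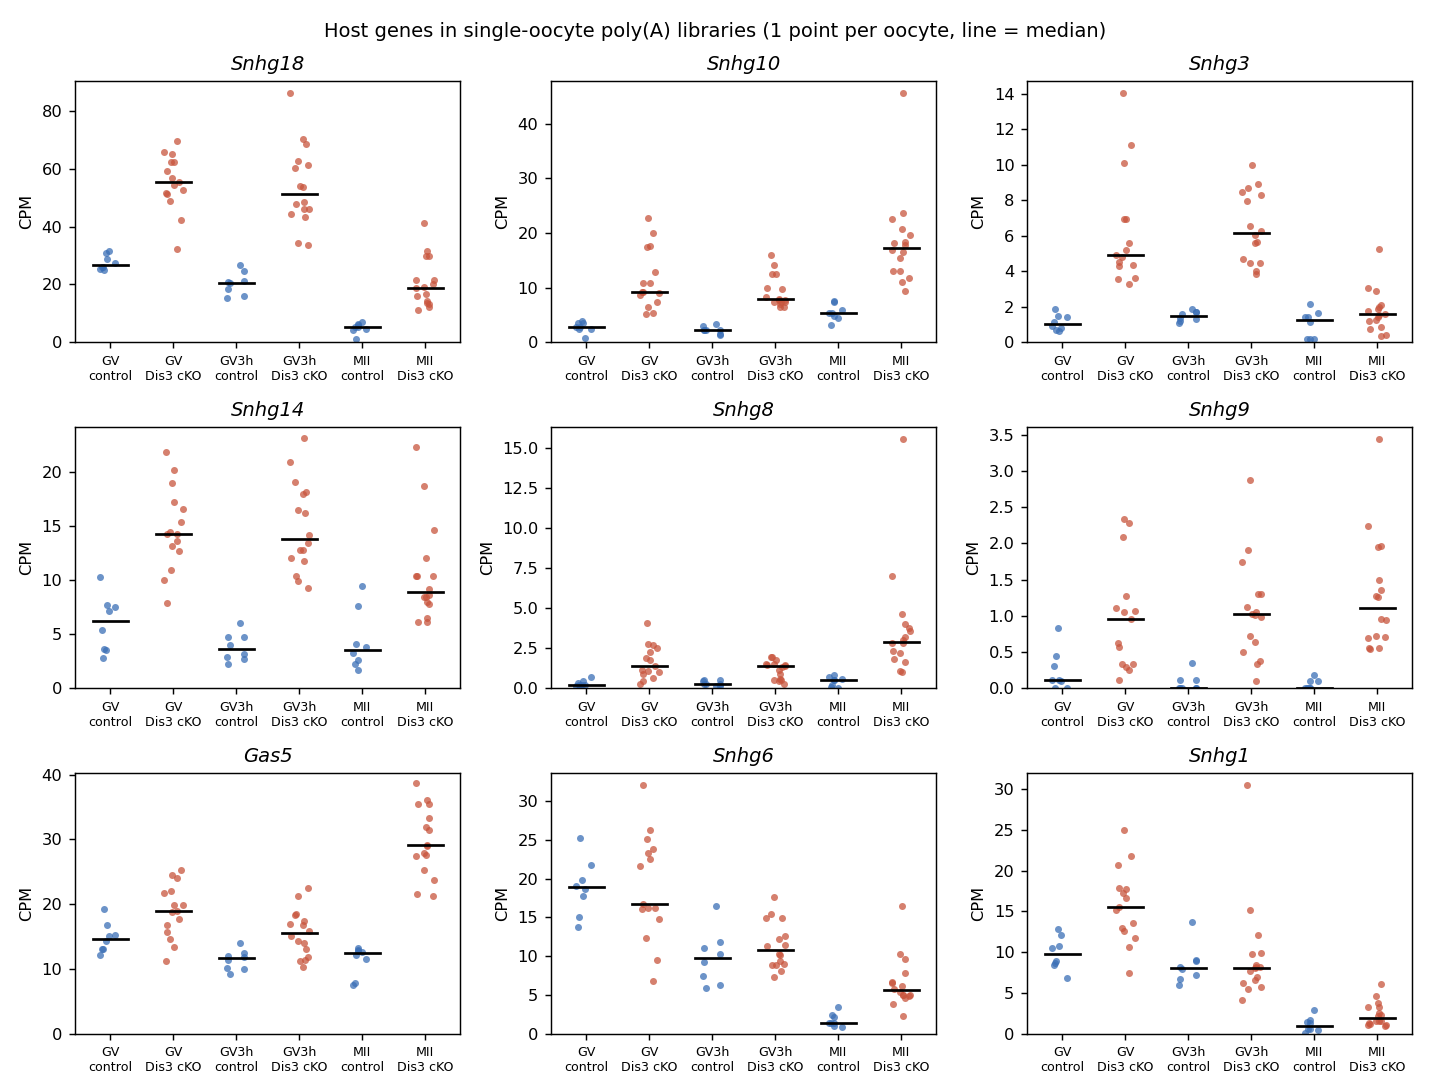
Level of 9 host genes in each poly(A) library, in CPM, by stage and genotype. Each point is 1 oocyte (blue control, red Dis3 cKO) and the black line is the group median. For Snhg18 the 15 GV Dis3 cKO oocytes lie at 32.5 to 69.6 CPM, above all 8 controls (24.9 to 31.5 CPM), while Gas5 separates at MII (21.3 to 38.8 against 7.60 to 13.2 CPM) and overlaps at GV.

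Snhg18 (ENSMUSG00000096956), the host of Snord123, ranged from 24.9 to 31.5 CPM (median 26.7) in the 8 GV controls and from 32.5 to 69.6 CPM (median 55.4) in the 15 Dis3 cKO oocytes. Its log2 fold change was 0.93 (edgeR adjusted p 7.7e-05, SE 0.19). All 15 knockout oocytes lay above the highest control, which held for 2.33% of all genes tested. Snhg10 (ENSMUSG00000113722), the gene that overlaps Scarna13, stood at 0.712 to 3.92 CPM (median 2.80) in controls and 5.21 to 22.8 CPM (median 9.16) in Dis3 cKO, a log2 fold change of 1.99 (edgeR adjusted p 1.72e-08, SE 0.27). Again no control reached a knockout. Scarna13 itself had poly(A) medians of 0.0542 CPM in controls and 0.143 CPM in Dis3 cKO at GV. Snhg3 (ENSMUSG00000085241), host of the 2 Snora73 genes that act in early rRNA processing, stood at 0.650 to 1.86 CPM (median 1.02) in controls. In Dis3 cKO it stood at 3.27 to 14.02 CPM (median 4.89), a log2 fold change of 2.42 (edgeR adjusted p 5.34e-07, SE 0.37). Its groups did not overlap either.

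The other 4 rose with overlapping groups. Snhg14, the long transcript of the imprinted Snrpn and Ube3a region that carries the Snord115 and Snord116 clusters, stood at 2.79 to 10.3 CPM (median 6.24) in GV controls and 7.84 to 21.9 CPM (median 14.3) in knockouts, a log2 fold change of 1.22 (edgeR adjusted p 0.000124, SE 0.25). Snhg8, host of Snora24, stood at 0.1095 to 0.696 CPM (median 0.205) in controls and at 0.222 to 4.06 CPM (median 1.36) in Dis3 cKO, a log2 fold change of 2.40 (edgeR adjusted p 0.000189, SE 0.51). Snhg9, host of Snora78, stood at 0 to 0.826 CPM (median 0.111) in controls and at 0.105 to 2.34 CPM (median 0.9504) in Dis3 cKO, a log2 fold change of 1.98 (edgeR adjusted p 0.0102, SE 0.60). Both had control medians under 1 CPM, where single counts matter. Snhg11 varied widely in both groups, at 0 to 2.99 CPM (median 0.635) in controls and at 0.143 to 16.3 CPM (median 2.83) in Dis3 cKO, with a log2 fold change of 2.07 (edgeR adjusted p 0.0422, SE 0.77). This call was lost with ERCC scaling, without a filter and with the replicate block.

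Hosts with no call at GV included Gas5 and Snhg6. Gas5, named for its rise in growth-arrested cells and host of box C/D snoRNAs, stood at 12.1 to 19.3 CPM (median 14.6) in controls and 11.3 to 25.2 CPM (median 18.9) in Dis3 cKO (log2 fold change 0.27, adjusted p 0.173 by edgeR). Snhg6 stood at 13.7 to 25.2 CPM (median 18.8) in controls and at 6.78 to 32.1 CPM (median 16.7) in Dis3 cKO (log2 fold change -0.07). Both pairs of groups overlapped broadly. The log2 fold changes of Snhg1, Snhg5, Snhg15 and Snhg20 were 0.60, 0.34, 0.55 and 1.44, none past the threshold.

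After 3 h of culture, 7 of 13 hosts rose in Dis3 cKO and none fell, where 22.9% of all genes were called higher and 15.7% lower. The hosts' median log2 fold change was 1.25 and that of all genes 0.07. Since Snhg8, Snhg9 and Snhg20, under 0.5 CPM on average in GV3h controls, are part of the host median, nothing is read from it. Snhg10, Snhg14, Snhg18, Snhg3, Snhg9 and Snhg8 passed again, and Snhg20 joined them in place of Snhg11. Snhg10, Snhg18, Snhg9 and Snhg8 rose by 1.89, 1.25, 3.54 and 1.76 (edgeR adjusted p 2.7e-08, 1.35e-07, 1.57e-05 and 0.00275). For Snhg10, Snhg14, Snhg18 and Snhg3 all 16 knockouts exceeded all 8 controls, as did 7.31% of all genes. Snhg14 stood at 2.24 to 5.97 CPM (median 3.56) in GV3h controls and 9.25 to 23.1 CPM (median 13.8) in Dis3 cKO, a log2 fold change of 1.84 (edgeR adjusted p 3.11e-08, SE 0.26). Snhg3 stood at 1.10 to 1.87 CPM (median 1.49) in controls and at 3.85 to 9.98 CPM (median 6.12) in Dis3 cKO, a log2 fold change of 1.97 (edgeR adjusted p 6.86e-06, SE 0.36). Snhg11 reached high levels in GV3h controls too. It stood at 0.442 to 11.2 CPM (median 7.40) in controls and from 0.226 CPM upward (median 6.01) in Dis3 cKO, a log2 fold change of 0.01 (edgeR adjusted p 0.994). Snhg20 rose by 1.85 (edgeR adjusted p 0.027, SE 0.69), a call lost when no filter on low counts was applied. Gas5, Snhg1, Snhg5, Snhg6 and Snhg15 gave 0.30, 0.05, 0.03, 0.07 and -0.57 with no call.

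In MII eggs 10 of 13 hosts rose and none fell, with 27.3% of all genes called higher, 14.8% lower, and medians of 1.66 for the hosts and 0.16 for all genes. The host median includes Snhg8, Snhg9, Snhg11, Snhg15 and Snhg20, which averaged under 0.5 CPM in MII controls, so nothing is read from it. Gas5 stood at 7.60 to 13.2 CPM (median 12.4) in controls and 21.3 to 38.8 CPM (median 29.1) in Dis3 cKO, a log2 fold change of 1.30 (edgeR adjusted p 1.23e-11, SE 0.14). All 16 knockout eggs lay above the highest control, as did 2.39% of all genes. Snhg18 stood at 1.05 to 7.05 CPM (median 5.31) in controls and at 11.1 to 41.2 CPM (median 18.9) in Dis3 cKO, a log2 fold change of 1.98 (edgeR adjusted p 8.15e-13, SE 0.20). Snhg10 stood at 3.22 to 7.57 CPM (median 5.33) in controls and at 9.37 to 45.6 CPM (median 17.3) in Dis3 cKO, a log2 fold change of 1.66 (edgeR adjusted p 1.58e-07, SE 0.25). Neither showed any overlap between genotypes. Snhg8 and Snhg9 averaged under 0.5 CPM in MII controls and passed the filter through groups where they were higher, so nothing is read from their separation. Snhg8 stood at 0 to 0.796 CPM (median 0.509) in controls and at 0.978 to 15.5 CPM (median 2.90) in Dis3 cKO, a log2 fold change of 3.09 (edgeR adjusted p 4.94e-07, SE 0.49). Snhg9 stood at 0 to 0.174 CPM (median 0) in controls and at 0.535 to 3.44 CPM (median 1.11) in Dis3 cKO, a log2 fold change of 4.43 (edgeR adjusted p 3.26e-07, SE 0.70). The 8 control eggs held 4 Snhg9 counts in all, so the size of that fold change is poorly fixed.

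Snhg6, the host of Snord87, stood at 0.898 to 3.39 CPM (median 1.43) in MII controls and 2.26 to 16.4 CPM (median 5.58) in Dis3 cKO, a log2 fold change of 1.78 (edgeR adjusted p 4.92e-08, SE 0.26), with 15 of 16 knockouts above the highest control. Snhg14, Snhg15, Snhg1 and Snhg20 rose by 1.18, 1.83, 1.00 and 1.88 (edgeR adjusted p 8.74e-05, 0.00226, 0.0122 and 0.0293). Snhg15 and Snhg20 also averaged under 0.5 CPM in MII controls. The calls of Snhg15 and Snhg1 were lost in a fit of the 2 MII groups alone, and that of Snhg20 in 4 of 8 alternatives. Without MII Dis3 cKO egg 15 the change of Snhg20 was 1.59 with an edgeR adjusted p of 0.0627. Snhg3 overlapped between genotypes at MII. It stood at 0.170 to 2.16 CPM (median 1.25) in controls and 0.320 to 5.22 CPM (median 1.57) in Dis3 cKO, a log2 fold change of 0.70 (edgeR adjusted p 0.0976, SE 0.34), with no call. Snhg5 and Snhg11 gave 0.27 and 1.42, also with none. The granulosa and cumulus list was lower in these knockout eggs, with 9 of 10 genes detected and a sum of 86.1 to 112 CPM in MII controls, and 7 of 10 and 51.6 to 84.5 CPM in Dis3 cKO. Ptx3 was at 0 in both groups, and Foxl2 and Hsd17b1 in the knockouts. At the other stages, where Ptx3 alone was at 0, the list's sum overlapped between genotypes. It stood at 88.6 to 133 CPM (median 105.5) in GV controls and 70.4 to 113 CPM (median 89.98) in GV Dis3 cKO, and at 70.3 to 113 CPM (median 85.6) and 45.1 to 93.6 CPM (median 72.0) at GV3h. The part of such RNA in the host changes was not tested.

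Hosts below the filter are described by their counts. Snhg12, which carries 4 of the measured snoRNAs, had 3 counts in the GV3h controls and 30 in GV3h Dis3 cKO, a ratio of 4.44 in CPM with a 95% counting interval of 1.38 to 22.7 (exact). Snhg17 had 0 counts in MII controls and 24 in MII Dis3 cKO, at least 4.38-fold higher against a floor of 3 counts over the control group. Those 24 counts lay in 4 of the 16 eggs. Without a filter on low counts, edgeR called Snhg17 higher there (adjusted p 0.024), as it did 13.7% of all genes. Snhg7os had 0 counts in adult RiboMinus controls and 22 in Dis3 cKO, at least 7.35-fold higher by the same floor, all in 2 of 8 oocytes. These intervals and floors cover counting error alone, and the reads are not described as carrying molecular identifiers.

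Whether the knockout effect itself differed between stages was tested as an interaction. From GV to MII the effect of the Dis3 cKO was larger for Snhg6 by 1.85 (edgeR adjusted p 5.82e-05, SE 0.34), for Gas5 by 1.03 (edgeR adjusted p 8.96e-05, SE 0.19) and for Snhg18 by 1.05 (edgeR adjusted p 0.00326, SE 0.26) on the log2 scale. It was smaller for Snhg3, with a difference of -1.72 (edgeR adjusted p 0.0109, SE 0.49). Across all genes 9.28% had a larger and 3.88% a smaller effect at MII, against 4 and 1 of 13 hosts. The fourth host with a larger effect was Snhg9, at 2.46 (edgeR adjusted p 0.0484, SE 0.87), a call lost in 5 of 7 alternatives. The Snhg18 difference was lost with the replicate block (adjusted p 0.0801) and that of Snhg3 with ERCC scaling (0.0673). Between GV and GV3h the effect differed for 0 of 13 hosts by edgeR (2.04% of all genes), with 1 host at an unadjusted p under 0.05 and none called by DESeq2.

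Maturation in controls was described by the same hosts. In control eggs relative to control GV oocytes, Snhg6 had a log2 fold change of -3.12 (edgeR adjusted p 3.42e-15, SE 0.29) and Snhg18 one of -2.20 (edgeR adjusted p 4.56e-14, SE 0.22). Snhg1 and Snhg15 fell as well (-2.85 and -3.42, edgeR adjusted p 1e-09 and 1.58e-07). So did Snhg5 (-1.11, edgeR adjusted p 0.00292), and Snhg9 (-1.79, adjusted p 0.0382, lost in 5 of 8 alternatives). Snhg10 was the host called higher, with a log2 fold change of 1.29 (edgeR adjusted p 8.45e-05, SE 0.29), while Gas5, Snhg3, Snhg8, Snhg11, Snhg14 and Snhg20 gave no call, Gas5 at -0.10 and Snhg3 at 0.19. The all-gene median was -0.27, and 35.8% of genes were called lower and 22.7% higher. Scaling to the added ERCC RNAs moved that median to -2.12, and with it Snhg10 and Snhg3 turned to -0.56 and -1.64 (edgeR adjusted p 0.0553 and 0.000459). Under that scaling 87.5% of all genes were called lower, Gas5 (-1.94), Snhg14 (-2.07), Snhg11 (-2.65) and Snhg20 (-2.93) among them. Between GV3h and GV controls 1 of 13 hosts was called, Snhg6 at -0.94 (edgeR adjusted p 0.0342, SE 0.27), a call lost with ERCC scaling and without a filter. Here 1.56% of genes were called lower and 1.14% higher. The comparison of MII with GV controls and the comparison of the knockout effects share the GV and MII control libraries, so the lower control level and the larger knockout effect of Snhg6 and Snhg18 at MII are not independent.

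**Figure D2:**
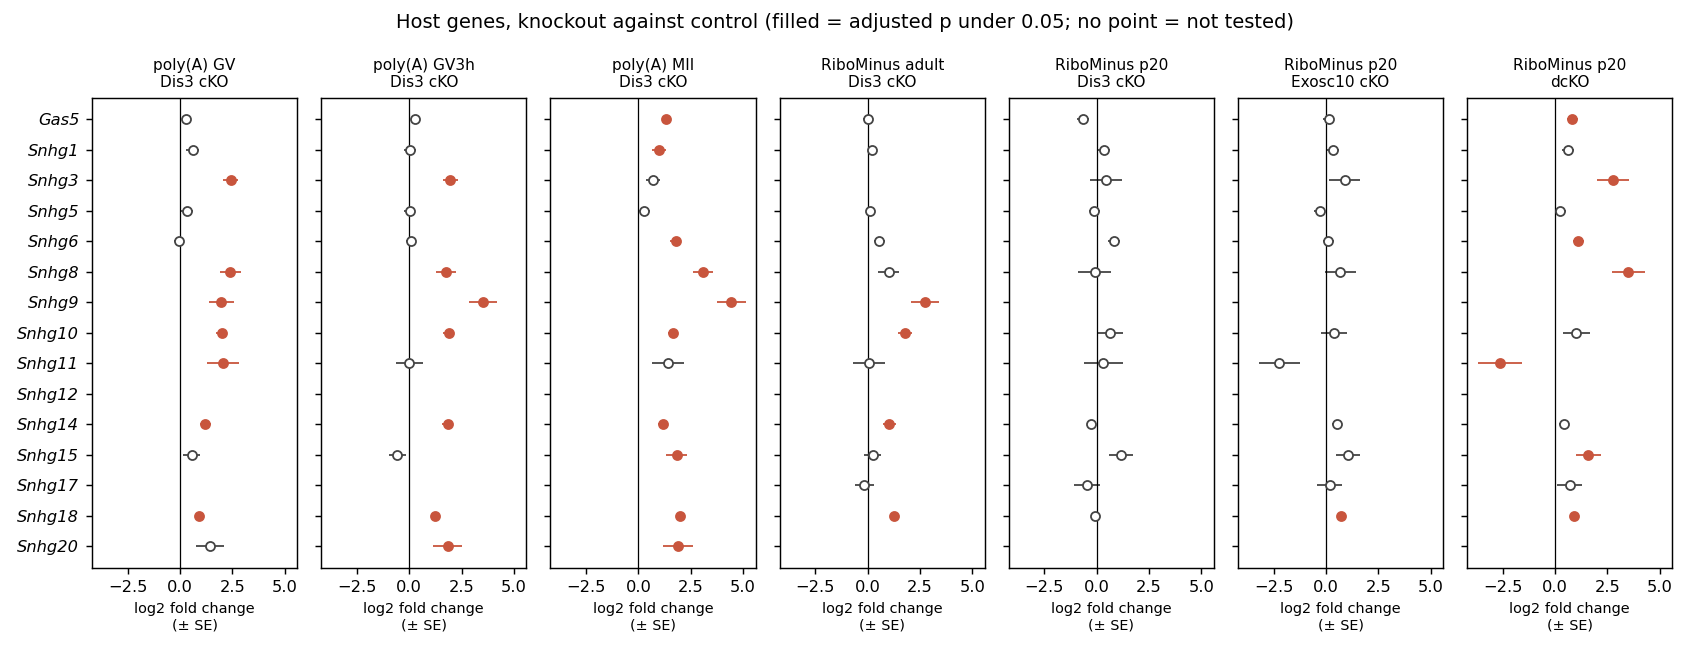
Log2 fold change of each host gene, knockout against control, in 7 comparisons; bars are ± 1 SE. Filled red points passed an edgeR adjusted p of 0.05, open points did not, and a missing point was not tested because the gene was too low. Poly(A) Dis3 cKO comparisons hold 7, 7 and 10 filled points to the right of 0, and p20 Dis3 cKO holds none.

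In the RiboMinus libraries of adult GV oocytes 4 of 12 hosts tested rose in Dis3 cKO and none fell (15.7% of all genes higher, 12.4% lower). Snhg8, Snhg9 and Snhg10 averaged under 0.5 CPM in controls and passed the filter through the knockouts, and of the other 9 hosts 2 rose, Snhg14 and Snhg18. The median log2 fold change was 0.40 for the 12 hosts and 0.03 for all genes. As Snhg8, Snhg9 and Snhg10 are part of the host median, nothing is read from it. Snhg18 stood at 4.65 to 8.96 CPM (median 7.496) in the 8 controls and 13.02 to 25.9 CPM (median 17.7) in the 8 Dis3 cKO oocytes, a log2 fold change of 1.25 (edgeR adjusted p 2.22e-05, SE 0.16). Snhg10 stood at 0.216 to 0.695 CPM (median 0.427) in controls and at 0.931 to 2.68 CPM (median 1.40) in Dis3 cKO, a log2 fold change of 1.78 (edgeR adjusted p 0.000829, SE 0.35). Snhg9 stood at 0 to 0.533 CPM (median 0.133) in controls and at 0.631 to 2.92 CPM (median 0.951) in Dis3 cKO, a log2 fold change of 2.75 (edgeR adjusted p 0.00462, SE 0.67). The genotypes did not overlap for any of these 3 (4.63% of all genes). For Snhg10 and Snhg9, which entered through the knockouts, nothing is read from that. Snhg14 overlapped, at 1.60 to 8.09 CPM (median 2.59) in controls and at 5.20 to 12.4 CPM (median 8.13) in Dis3 cKO, a log2 fold change of 1.05 (edgeR adjusted p 0.0149, SE 0.30), and lost its call with ERCC scaling. Snhg3 was too low for the filter here. Its levels were 0.0721 to 0.268 CPM (median 0.236) in controls and 0.141 to 1.57 CPM (median 1.05) in knockouts, with a change of 2.13 (edgeR adjusted p 0.0111) when no filter was applied. Gas5 gave no call, at 3.09 to 9.08 CPM (median 6.08) in controls and at 3.66 to 9.62 CPM (median 5.84) in Dis3 cKO (log2 fold change 0.02, edgeR adjusted p 0.955). The other hosts tested, Snhg1, Snhg5, Snhg6, Snhg8, Snhg11, Snhg15 and Snhg17, gave 0.22, 0.13, 0.55, 1.00, 0.06, 0.25 and -0.15 with no call.

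Summed over the title tags, which leaves 2 sums per genotype, none of these 4 host calls remained, and none of all 15334 genes was called. The log2 fold changes stayed at 1.22 for Snhg18, 1.75 for Snhg10, 2.78 for Snhg9 and 0.94 for Snhg14. The tag means of Snhg18 were 8.04 and 6.80 CPM in controls and 21.9 and 15.8 CPM in Dis3 cKO. The other 5 alternatives kept all 4 calls, except that of Snhg14 under ERCC scaling.

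Poly(A) and RiboMinus libraries of GV oocytes were compared directly, which asks whether a member gained more in the poly(A) fraction than in rRNA-depleted RNA. Summed over 16 hosts, the mean level was 89.9 CPM in poly(A) controls and 159.6 in poly(A) Dis3 cKO, against 33.4 and 57.5 CPM in adult RiboMinus oocytes. The 141 snoRNAs summed to 8.15 and 5.79 CPM in poly(A) and 52.0 and 64.1 CPM in RiboMinus libraries. In both genotypes hosts held more of the poly(A) counts than snoRNAs did, and snoRNAs more of the RiboMinus counts than hosts did. No difference of the Dis3 effect between assays was called by edgeR or DESeq2 for the 13 hosts tested (2.27% of all genes by edgeR), with 1 host at an unadjusted p under 0.05. Of 15 snoRNAs in that fit, 12 had fewer than 20 counts in all poly(A) GV libraries, 3 of them none, so the comparison says nothing on those. The 3 with more counts were Snora47, Snord13 and Snord83b, and none of them was called. For Snora47 the poly(A) effect minus the RiboMinus effect was -1.75, with an unadjusted p of 0.00504 and an edgeR adjusted p of 0.11. For Snhg8 the difference was 1.48 (edgeR adjusted p 0.298, SE 0.69), and for Snhg18 -0.26 (edgeR adjusted p 0.568, SE 0.19). The 2 assays were made by different protocols, so levels between them are not to scale.

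**Figure D3:**
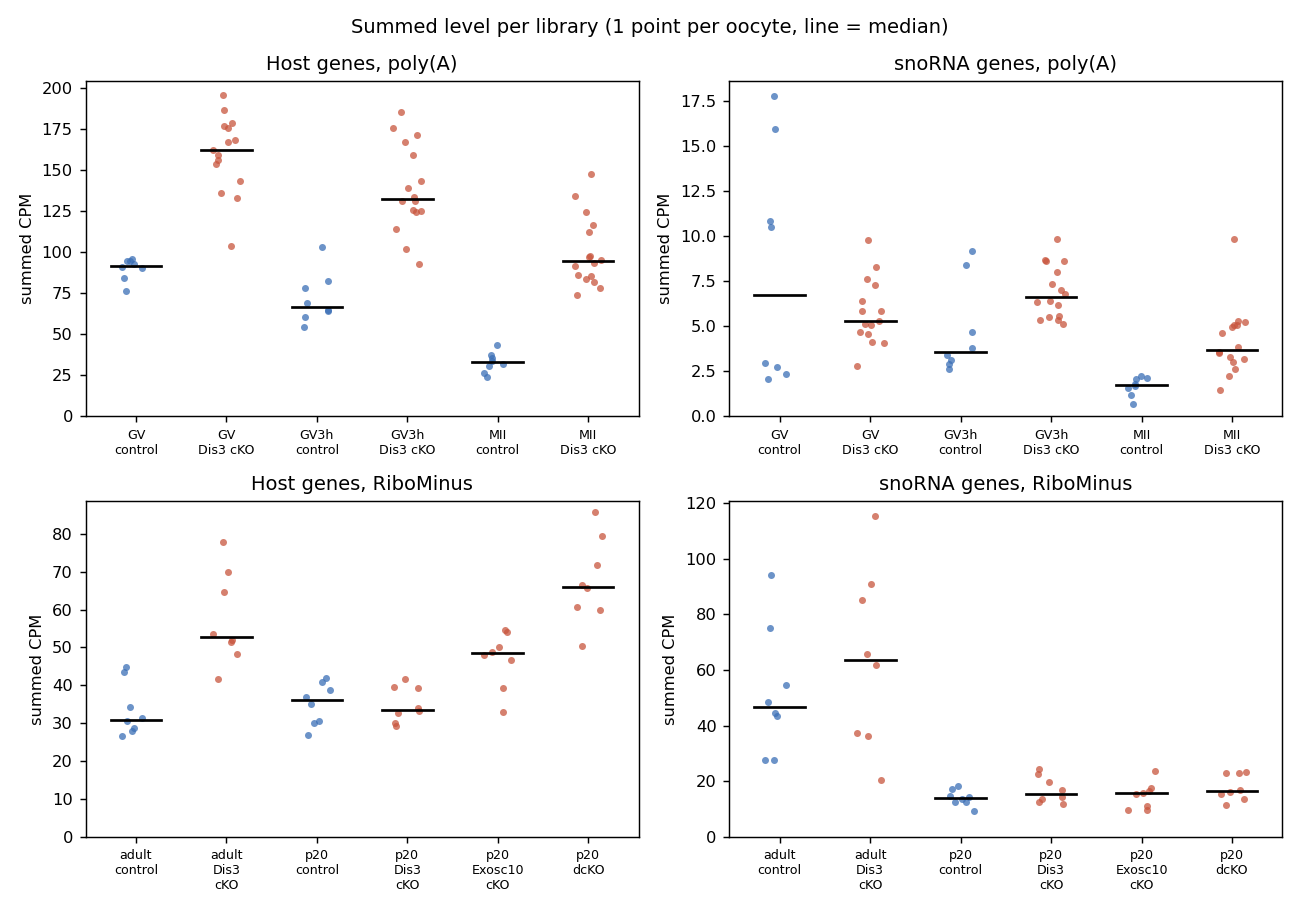
Summed CPM of the 16 hosts (left) and the 141 snoRNAs (right) in each poly(A) library (top) and RiboMinus library (bottom). Each point is 1 oocyte (blue control, red knockout) and lines are medians. Median host sums are higher in Dis3 cKO at all 3 poly(A) stages (162 against 91.8 CPM at GV), and median snoRNA sums are higher in both adult RiboMinus groups than in the 4 p20 groups.

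The snoRNAs themselves gave little signal in poly(A) RNA. Their summed level was 2.06 to 17.8 CPM (median 6.74) in GV controls and 2.78 to 9.78 CPM (median 5.29) in Dis3 cKO. At GV3h it was 2.63 to 9.20 CPM (median 3.60) in controls and 5.13 to 9.85 CPM (median 6.61) in Dis3 cKO, and at MII 0.701 to 2.26 CPM (median 1.75) and 1.47 to 9.85 CPM (median 3.71). Sums overlapped at all 3 stages, and no test was made of a sum. The GV controls were uneven: oocytes 4, 5, 7 and 8 held 17.8, 10.9, 10.5 and 15.9 CPM and the other 4 held 2.06 to 2.97. Box C/D snoRNAs alone averaged 1.48 CPM in controls and 1.87 in Dis3 cKO at GV, 1.21 and 2.57 at GV3h, and 0.883 and 1.52 at MII. Box H/ACA snoRNAs averaged 6.67 CPM in controls and 3.92 in Dis3 cKO at GV, 3.57 and 4.36 at GV3h, and 0.796 and 2.66 at MII.

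Snora47, an H/ACA snoRNA that lies in Zbed3, was the single snoRNA to pass the filter in poly(A) data, and it held much of these sums. It stood at 0.418 to 11.6 CPM (median 3.86) in GV controls and 1.00 to 5.98 CPM (median 2.13) in Dis3 cKO, a log2 fold change of -1.01 (edgeR adjusted p 0.0524, SE 0.39), with no call by edgeR and a lower call by DESeq2. At MII it stood at 0.263 to 1.22 CPM (median 0.473) in controls and 0.275 to 3.82 CPM (median 1.97) in Dis3 cKO, and rose by 1.64 (edgeR adjusted p 0.00201, SE 0.45). The genotypes overlapped at both stages. In MII eggs 27.3% of all genes were called higher, so a call on the 1 snoRNA tested is not read as a result about snoRNAs. Its GV3h change was 0.43 (edgeR adjusted p 0.416), and its effect at MII exceeded that at GV by 2.65 (edgeR adjusted p 0.00101, SE 0.59). In controls Snora47 was lower at MII than at GV, with a log2 fold change of -2.77 (edgeR adjusted p 1.87e-06, SE 0.50). This value and the difference of 2.65 share the GV and MII control libraries, so they are not independent. The 4 GV controls with high snoRNA sums, oocytes 4, 5, 7 and 8, were also the 4 highest when Snora47 was left out of the sum, at 3.504 to 6.19 CPM against 0.915 to 2.40 in the others.

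Below the filter, Snord13 and Snord93 had few or no counts in controls at each poly(A) stage. Snord13, which guides acetylation in small-subunit rRNA and has its own promoter, had 2 counts in the 8 GV controls and 18 in the 15 Dis3 cKO oocytes, of which 7 had a count (CPM ratio 4.76, 95% counting interval 1.14 to 42.3, exact). At GV3h it had 0 counts in controls and 26 in knockouts (13 of 16 oocytes with a count), at least 3.84-fold higher against a floor of 3 counts over the control group. At MII it had 0 and 9 counts, at least 1.64-fold higher by the same floor. Snord93 had 2 and 24 counts at GV, a ratio of 6.35 in CPM with a 95% counting interval of 1.58 to 55.5 (exact). At GV3h it had 3 and 80 counts (ratio 11.8, 3.90 to 58.6), and at MII 0 and 42 (at least 7.66-fold higher). Snord93 counts lay in 7 of 15 knockout oocytes at GV, 8 of 16 at GV3h and 11 of 16 at MII. At GV3h 3 of 8 controls also had a count. The intervals cover counting error alone and not this spread between oocytes. Snora7a, one of the 5 most abundant snoRNAs in poly(A) data, had 7 counts in controls and 29 in Dis3 cKO at GV, 18 and 31 at GV3h, and 3 and 38 at MII (ratio 6.93, 2.20 to 35.1). Its mean was higher in controls at GV3h, and it was called at none of the 3 stages without a filter. Without a filter on low counts, edgeR called Snord13 and Snord93 higher at GV3h (adjusted p 0.00503 and 0.0257) and at MII (0.0349 and 0.00472). Snord118, which acts in large-subunit rRNA processing, had 2 against 11 counts at GV, 4 against 12 at GV3h and 0 against 1 at MII.

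Of the 141 snoRNAs, 107 had poly(A) counts, and for these the test without a filter called 0 higher and 3 lower at GV (Snora20, Snora36b and Snora75), 3 higher and 3 lower at GV3h, and 6 higher and 1 lower at MII. Of the 3 lower at GV, Snora20 had 11 counts in controls and 2 in knockouts. At GV3h the higher ones were Snord13, Snord4a and Snord93, and the lower ones Snord53, Snora3 and Snora62, and they are named here after their values were seen. Among the 6 higher at MII were Snora57, Snora64 and Snord45c beside Snora47, Snord13 and Snord93, and the 1 lower was Snord58b. The 3 lower calls at GV3h rest on 3 to 6 control counts each, and that of Snord58b on 3. Among all genes, this test called 7.06% higher and 3.94% lower at GV, 13.7% and 7.3% at GV3h, and 13.7% and 8.38% at MII.

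RiboMinus data resolved 23 snoRNAs in adult GV oocytes. Of these, 3 rose in Dis3 cKO and none fell, with 15.7% of all genes called higher. The median log2 fold change of the 23 was -0.14, against 0.03 over all genes. Snord13 (ENSMUSG00000088252; chr8:31149861-31149958 in GRCm38.p6) stood at 1.98 to 8.02 CPM (median 3.85) in controls and 1.82 to 23.9 CPM (median 11.1) in Dis3 cKO, a log2 fold change of 1.38 (edgeR adjusted p 0.0152, SE 0.40), with 6 of 8 knockouts above the highest control. Snord118 (ENSMUSG00000064899; chr11:69073426-69073562) stood at 1.08 to 4.95 CPM (median 2.35) in controls and at 1.22 to 12.7 CPM (median 7.11) in Dis3 cKO, a log2 fold change of 1.27 (edgeR adjusted p 0.0216, SE 0.40), with 5 of 8 above. Both lie inside no other RefSeq gene, as does Snord89, which stood at 1.08 to 3.03 CPM (median 1.77) in controls and at 0.325 to 3.03 CPM (median 1.23) in Dis3 cKO, a log2 fold change of -0.38 (edgeR adjusted p 0.536, SE 0.42). Snora47 stood at 2.77 to 6.13 CPM (median 3.60) in controls and at 4.48 to 11.3 CPM (median 5.91) in Dis3 cKO, a log2 fold change of 0.80 (edgeR adjusted p 0.0275, SE 0.26), with 4 of 8 above.

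Of the tested snoRNAs that lie inside another gene, Snora47 was the 1 called. Snord32a, one of the 3 snoRNAs with the most RiboMinus counts, stood at 3.51 to 13.6 CPM (median 6.49) in controls and 1.79 to 14.2 CPM (median 6.46) in Dis3 cKO, a log2 fold change of -0.19 (edgeR adjusted p 0.763, SE 0.40). Snord34 from the same gene stood at 1.243 to 6.17 CPM (median 2.63) in controls and at 0.608 to 5.05 CPM (median 1.52) in Dis3 cKO (log2 fold change -0.54). Snord83b, Snord82 and Snord17 gave -0.38, -0.71 and 0.27, and none of these 5 passed. Snord93, which had gained counts in poly(A) knockouts, stood at 0.0721 to 0.573 CPM (median 0.130) in controls and at 0.0621 to 0.846 CPM (median 0.620) in Dis3 cKO, a log2 fold change of 1.17 (edgeR adjusted p 0.0989, SE 0.52). It averaged under 0.5 CPM in controls, passed the filter through the knockouts, and was not called. Among snoRNAs inside member hosts, Snora73a and Snora73b in Snhg3 gave -0.14 and 0.04, and Snord87 in Snhg6 gave 0.33 beside 0.55 for Snhg6, with no call on any of them.

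The 3 snoRNA calls depended on the scaling. With ERCC scaling, which moved the all-gene median to -0.52, 0 of 23 snoRNAs were called higher and 7 lower, where 4.56% of all genes were called higher and 40.1% lower. The changes of Snord13, Snord118 and Snora47 were 0.82, 0.59 and 0.16. With counts summed per tag no gene at all was called, while the changes of these 3 stayed at 1.36, 1.25 and 0.76. The tag means of Snord13 were 2.68 and 5.62 CPM in controls and 15.1 and 8.06 in Dis3 cKO, so each knockout tag lay above each control tag. For Snord118 they were 1.81 and 3.47 against 6.88 and 6.59 CPM.

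**Figure D4:**
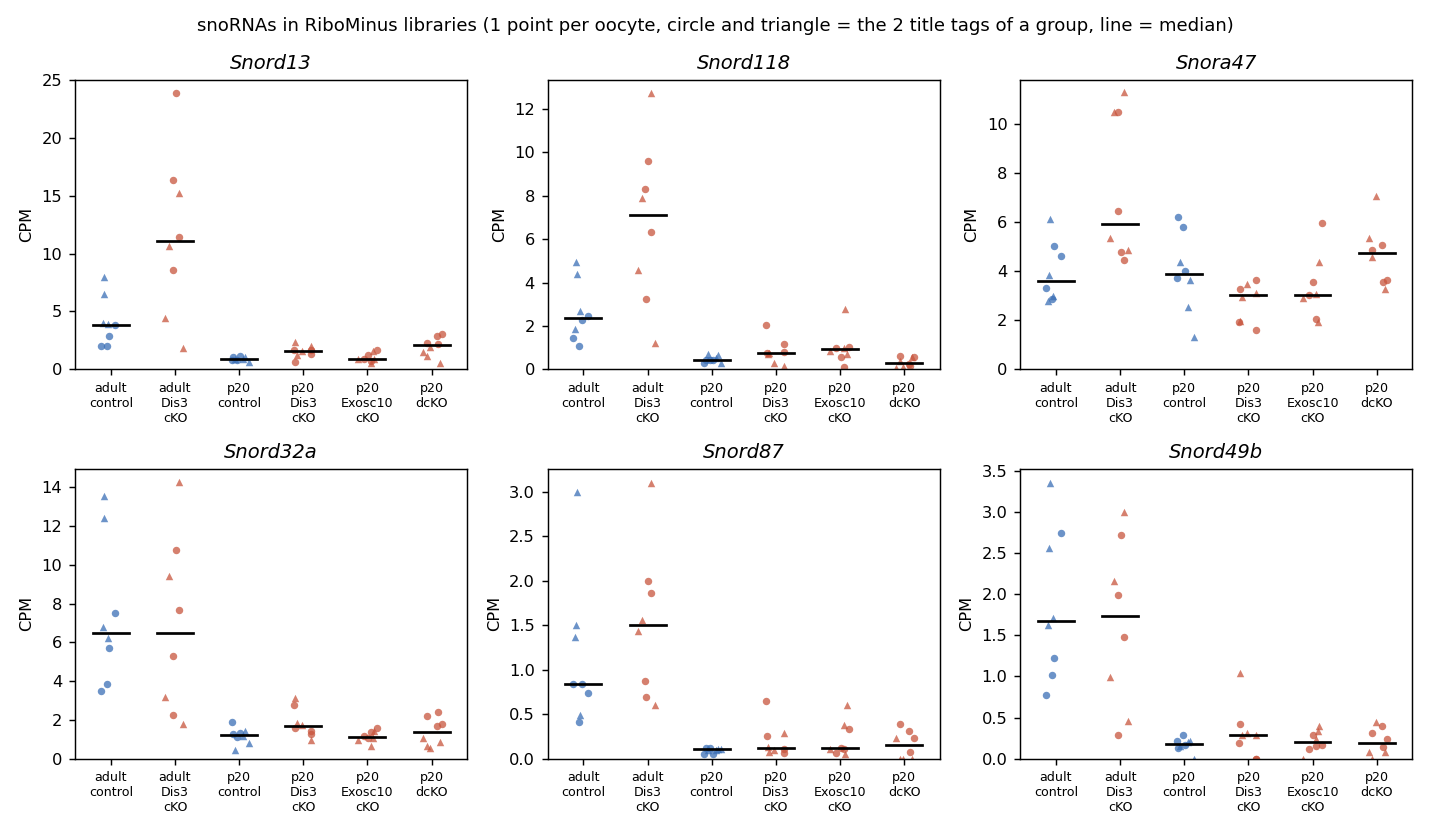
Level of 6 snoRNAs in each RiboMinus library, in CPM, by age and genotype. Each point is 1 oocyte, circles and triangles are the 2 title tags of a group, and lines are medians. Median Snord13 is 3.85 CPM in adult controls and 11.1 in adult Dis3 cKO, and every snoRNA drawn except Snora47 has a lower median in all p20 groups than in adult controls. Snord87 and Snord49b passed the filter through the adult oocytes, so nothing is read from their lower p20 medians.

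At p20, calls on hosts and on all genes alike were most frequent in the double knockout. In p20 Dis3 cKO, 0 of 12 hosts and 0 of 10 snoRNAs were called by edgeR (7.37% of all genes in either direction). At an unadjusted p under 0.05 stood 2 hosts and 2 snoRNAs, and DESeq2 called 1 host. In p20 Exosc10 cKO, Snhg18 was the 1 of 12 hosts that rose (3.95% of all genes higher). It stood at 5.21 to 11.3 CPM (median 7.92) in p20 controls and at 6.50 to 22.3 CPM (median 13.6) in Exosc10 cKO, a log2 fold change of 0.71 (edgeR adjusted p 0.0198, SE 0.20), and this call was lost with ERCC scaling and with sums per tag, where 1.35% and 0.856% of all genes were called higher. None of 10 snoRNAs was called there by edgeR or DESeq2, with 1 at an unadjusted p under 0.05 (3.5% of all genes lower). In dcKO, 6 of 12 hosts rose and 1 fell, where 26.6% of all genes were called higher and 27.1% lower. Snhg3, Snhg8 and Snhg15, 3 of the 6, averaged under 0.5 CPM in controls and passed the filter through dcKO. Of the other 9 hosts 3 rose, near the share of all genes, and 1 fell. The hosts' median log2 fold change was 0.86 and that of all genes -0.01. This host median includes Snhg3, Snhg8 and Snhg15, so nothing is read from it. The granulosa and cumulus sum stood at 122 to 179.7 CPM (median 135) in p20 controls and 132 to 197 CPM (median 167) in dcKO, with Ptx3 at 0 in both, and its part in the host changes was not tested.

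Snhg8, 1 of the 3 that passed the filter through dcKO, stood at 0 to 0.810 CPM (median 0.0765) in controls and at 0.534 to 5.38 CPM (median 1.52) in dcKO, a log2 fold change of 3.502 (edgeR adjusted p 0.000225, SE 0.76). Snhg3 stood at 0 to 0.562 CPM (median 0.259) in controls and at 0.421 to 3.16 CPM (median 1.75) in dcKO, a log2 fold change of 2.76 (edgeR adjusted p 0.00246, SE 0.76). Snhg3 passed the filter through dcKO too, so no separation is read for these 2. Snhg18 stood at 5.21 to 11.3 CPM (median 7.92) in controls and at 11.3 to 20.2 CPM (median 17.9) in dcKO, a log2 fold change of 0.90 (edgeR adjusted p 0.000246, SE 0.20), with 7 of 8 dcKO oocytes above the highest control. Snhg6 stood at 1.22 to 3.22 CPM (median 2.01) in controls and at 2.94 to 8.39 CPM (median 4.67) in dcKO, a log2 fold change of 1.11 (edgeR adjusted p 0.000994, SE 0.28). Gas5 stood at 2.50 to 8.22 CPM (median 4.71) in controls and at 4.88 to 15.3 CPM (median 9.96) in dcKO, a log2 fold change of 0.82 (edgeR adjusted p 0.0104, SE 0.27). Snhg15 rose by 1.59 (edgeR adjusted p 0.0207, SE 0.58), a call lost without a filter and with sums per tag. Sums per tag, with which 20.9% of all genes were called higher, also removed the call of Gas5. Below the filter, Snhg20 and Snhg9 rose by 3.80 and 3.13 in dcKO when no filter was applied (edgeR adjusted p 0.00409 and 0.0151). Snhg11 was the host that fell, with a log2 fold change of -2.62 (edgeR adjusted p 0.0326, SE 1.04), at 0.174 to 4.34 CPM (median 0.357) in controls and 0 to 0.942 CPM (median 0.0957) in dcKO. Snhg1, Snhg10, Snhg14, Snhg17 and Snhg5 gave 0.63, 1.02, 0.41, 0.69 and 0.24 without a call.

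The dcKO oocytes were also compared with each single knockout. Snhg3 and Snhg8 averaged under 0.5 CPM in both single knockouts and passed the filter through dcKO. Of the other 10 hosts 3 were called higher against Dis3 cKO and 2 against Exosc10 cKO, near the shares of all genes. Gas5, Snhg14, Snhg18, Snhg3 and Snhg8 were higher in dcKO than in Dis3 cKO by 1.48, 0.68, 0.96, 2.34 and 3.60 (edgeR adjusted p 3.83e-05, 0.0074, 0.000143, 0.0102 and 0.000269; 26.0% of all genes higher, 25.5% lower). Snhg11 was lower, with a log2 fold change of -2.93 (edgeR adjusted p 0.0192, SE 1.05). Compared with Exosc10 cKO, Gas5, Snhg3, Snhg6 and Snhg8 were higher in dcKO by 0.69, 1.86, 0.99 and 2.83 (edgeR adjusted p 0.0327, 0.0322, 0.00326 and 0.00159; 24.2% of all genes higher, 25.0% lower). The Gas5 call there was lost in 4 of 8 alternatives, the replicate block among them. These comparisons share the dcKO libraries with the one against control.

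Among p20 snoRNAs, Snord13 was the 1 of 10 that rose in dcKO, a share below the 26.6% of all genes. It stood at 0.607 to 1.18 CPM (median 0.891) in controls and 0.587 to 3.06 CPM (median 2.06) in dcKO, a log2 fold change of 0.91 (edgeR adjusted p 0.0244, SE 0.34), with 6 of 8 above the highest control. The call was lost with ERCC scaling (0.79), without a filter and with sums per tag. Snord118 was lower in dcKO than in Dis3 cKO, with a log2 fold change of -1.42 (edgeR adjusted p 0.0297, SE 0.55), and than in Exosc10 cKO, with one of -1.68 (edgeR adjusted p 0.0106, SE 0.54), where 25.5% and 25.0% of all genes were called lower. Its levels were 0.275 to 0.716 CPM (median 0.433) in p20 controls, 0.145 to 2.03 CPM (median 0.745) in Dis3 cKO, 0.106 to 2.79 CPM (median 0.920) in Exosc10 cKO and 0.0763 to 0.628 CPM (median 0.310) in dcKO. All 4 groups overlapped. Snord118 averaged under 0.5 CPM in p20 controls and entered the p20 fit through groups in which it was higher. Its 2 lower calls in dcKO are therefore not support for a direction. In Exosc10 cKO, 1 oocyte held 2.79 CPM and the next 1.05 CPM. Snord34 was lower in dcKO than in Dis3 cKO as well, a log2 fold change of -1.08 (edgeR adjusted p 0.0373, SE 0.44). That call was lost in 5 of 8 alternatives, and those of Snord118 in 4 of 8 against Dis3 cKO and 1 of 8 against Exosc10 cKO.

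The Dis3 effect was also compared between ages. It was larger in adult than in p20 oocytes for Snhg18 by 1.29 (edgeR adjusted p 0.00062, SE 0.26), for Snhg14 by 1.30 (edgeR adjusted p 0.011, SE 0.35) and for Snora47 by 1.33 (edgeR adjusted p 0.019, SE 0.38) on the log2 scale, with 5.34% of all genes larger and 3.98% smaller. Snora47 stood at 1.32 to 6.23 CPM (median 3.88) in p20 controls and 1.61 to 3.66 CPM (median 3.03) in p20 Dis3 cKO, and Snhg18 at 5.21 to 11.3 and 5.74 to 10.8 CPM. Scaling to ERCC RNAs removed all 3 calls, with differences of 1.10 for Snhg18, 0.99 for Snhg14 and 0.98 for Snora47. So did summing per tag, with which 0.405% of all genes were called, while the differences stayed at 1.25 for Snhg18, 1.26 for Snhg14 and 1.34 for Snora47.

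The snoRNAs were also compared between control oocytes of different age. Of 22 snoRNAs tested, 15 were higher in adult GV than in p20 controls and none lower, where 8.69% of all genes were called higher and 10.4% lower. Of the box C/D class 13 of 16 were higher and of the H/ACA class 2 of 6. Since 12 of the 22 did not pass the filter in p20 libraries alone, and so entered through the adult oocytes in which they were higher, these counts are not support for a direction of the class. Of the 10 that the p20 libraries alone let through, 6 were higher (Snord111, Snord118, Snord13, Snord32a, Snord34 and Snord89) and Snora47, Snora73a, Snora73b and Snord17 were not called. With ERCC scaling, where 0.417% of all genes were called higher, only Snord32a of these 6 kept its call. Sums per tag, with which 0.689% of all genes were called higher, removed the calls of Snord111, Snord34 and Snord89. The p20 libraries of that filter included the knockouts, and Snord118 and Snord89 averaged under 0.5 CPM in p20 controls. Of the 8 snoRNAs at or above that mean in p20 controls, 4 were higher. Of the 14 hosts tested, 0 were called higher by edgeR and 1 lower. Summed, snoRNAs stood at 27.5 to 94.4 CPM (median 46.5) in adult controls and 9.16 to 18.3 CPM (median 13.98) in p20 controls, and hosts at 26.5 to 44.8 CPM (median 30.9) and 26.9 to 42.0 CPM (median 36.0).

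Snord32a stood at 3.51 to 13.6 CPM (median 6.49) in adult controls and 0.460 to 1.87 CPM (median 1.21) in p20 controls, a log2 fold change of 2.68 (edgeR adjusted p 6.19e-07, SE 0.37). Snord87 stood at 0.414 to 3.00 CPM (median 0.841) in adult controls and at 0.0537 to 0.125 CPM (median 0.104) in p20 controls, a log2 fold change of 3.54 (edgeR adjusted p 4.14e-05, SE 0.62). Snord49b stood at 0.769 to 3.35 CPM (median 1.67) in adult controls and at 0 to 0.290 CPM (median 0.182) in p20 controls, a log2 fold change of 3.44 (edgeR adjusted p 9.77e-05, SE 0.63). No p20 oocyte reached the lowest adult oocyte for these 3 (3.16% of all genes tested). Snord87 and Snord49b passed the filter through the adult oocytes, so nothing is read from their separation. Snord13 and Snord118 were higher by 2.20 (edgeR adjusted p 9.26e-06, SE 0.35) and 2.53 (edgeR adjusted p 9.33e-05, SE 0.46). Snora20, in the chaperonin gene Tcp1, entered through the adult oocytes as well and gave 2.83 (edgeR adjusted p 0.00144, SE 0.65).

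The other 7 snoRNAs tested gave no call, which does not show that they differ from those called. Snora47 stood at 2.77 to 6.13 CPM (median 3.60) in adult controls and at 1.32 to 6.23 CPM (median 3.88) in p20 controls, a log2 fold change of 0.03 (edgeR adjusted p 0.95, SE 0.27). Snora73a, Snora73b, Snord93, Snord17, Snord15a and Snora17 gave 0.52, 0.90, 0.44, 1.23, 1.23 and 1.77, all above 0. Snhg14 was the host that was lower in adults, at 1.60 to 8.09 CPM (median 2.59) in adult controls and at 6.30 to 14.2 CPM (median 9.002) in p20 controls, a log2 fold change of -1.27 (edgeR adjusted p 0.000243, SE 0.25). Changes of the other 13 hosts ran up to 1.43, with 0.28 for Gas5 and -0.06 for Snhg18.

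Genes that contain these snoRNAs were also compared between the ages. A tested containing gene was found for 17 snoRNAs, of which 7 passed the filter in p20 libraries alone. In these 7 pairs the snoRNA was called higher in 3, of which 2 lie in 1 gene, and no containing gene was called higher. Snx5, which contains Snord17, was lower by a log2 fold change of -0.79 (edgeR adjusted p 0.0168), and Snord17 gave 1.23 without a call. Snord111 was higher by 2.39 and Sf3b3, the splicing factor gene it lies in, gave 0.11 (edgeR adjusted p 8.56e-05 and 0.32). Snord32a and Snord34 lie in Rpl13a, which changed by 0.24 (edgeR adjusted p 0.427). Of the pairs that entered through adult oocytes, Snord83b was higher by 2.90 while Rpl3, the ribosomal protein gene it lies in, gave -1.11 (adjusted p 0.226). Snord82 was higher by 3.04 and Ncl, which encodes nucleolin, gave 0.21 (adjusted p 0.0699). Snord110 and Snord58b were the pairs in which the gene was higher too, Nop56 by 0.43 and Rpl17 by 0.66 (edgeR adjusted p 0.0152 and 0.00813).

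**Figure D5:**
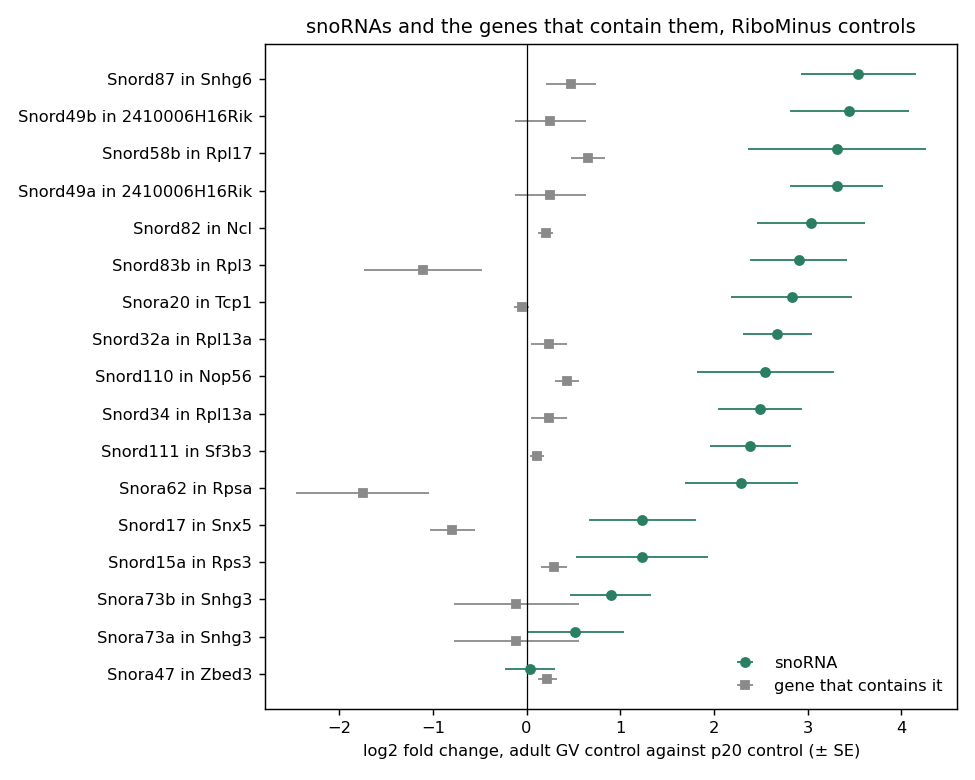
Log2 fold change of adult GV over p20 controls in RiboMinus data for 17 snoRNAs (green) and the gene that contains each (grey); bars are ± 1 SE. Snord32a lies at 2.68 and its gene Rpl13a at 0.24, and 7 of the 17 snoRNAs passed the filter on low counts in p20 libraries alone.

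Age and any difference in collection or preparation cannot be told apart here. The mean ratio of gene to ERCC counts was 403 in adult and 1267 in p20 controls. ERCC scaling moved the all-gene median from 0.00 to -1.69, left 6 snoRNAs higher and 2 lower (0.417% and 85.7% of all genes), and turned Gas5 (-1.38), Snhg1 (-1.16), Snhg5 (-1.69), Snhg6 (-1.18), Snora47 (-1.68) and Snora73a (-1.22) to a call in the lower direction. The 6 left higher were Snord32a, Snord49a, Snord49b, Snord82, Snord83b and Snord87, of which only Snord32a passed the filter in p20 libraries alone. Under ERCC scaling Snord13 and Snord118 stood at 0.51 and 0.84, with edgeR adjusted p of 0.175 and 0.0718. With sums per tag 7 snoRNAs were called, where 1.78% of all genes were called against 19.1% without summing. Rn7sk, a small nuclear RNA that is no member, had a median of 20.2 CPM in adult and 5.61 CPM in p20 controls, and Scarna13 13.9 and 26.2 CPM. The granulosa and cumulus list summed to a median of 107 CPM in adult and 135 CPM in p20 controls. For the oocyte markers the median sums were 9153 and 12879 CPM. The part of other cells' RNA, RNA yield or library preparation in the age difference was not tested.

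Genes whose products build, move or trim snoRNAs were followed as 4 lists. Beside their counts stand the shares over all genes, which were 13.6% higher and 8.33% lower at GV, 22.9% and 15.7% at GV3h, 27.3% and 14.8% at MII, 15.7% and 12.4% in adult RiboMinus Dis3 cKO, and 26.6% and 27.1% in p20 dcKO, and several counts lie near them. Of the 4 box C/D proteins, 3 could be tested in poly(A) data, and in Dis3 cKO 0 were higher and 1 lower at GV, 0 and 1 at GV3h, and 1 and 2 at MII. Nop56, a core protein of the particle, fell at all 3 stages, by 0.59, 0.56 and 1.07 on the log2 scale (edgeR adjusted p 1.43e-05, 1.68e-05 and 1.9e-13). Snu13, which binds the box C/D motif, rose at MII by 0.74 (adjusted p 4.02e-05). In RiboMinus data no call was made on any of the 4 in adult Dis3 cKO or in the p20 single knockouts, and in dcKO Nop58 was lower (-0.37, adjusted p 0.00637).

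Of 6 H/ACA proteins, 1 was higher and 1 lower in Dis3 cKO at GV (13.6% and 8.33% of all genes), 2 and 1 at GV3h, and 4 and 1 at MII. Adult RiboMinus oocytes and p20 dcKO each had 2 higher and 1 lower, and the p20 single knockouts 0. The lower one was in every case Dkc1, the pseudouridine synthase, at -0.70 at GV, -0.78 at GV3h, -1.01 at MII, -0.57 in adult RiboMinus data and -0.98 in p20 dcKO (edgeR adjusted p 1.78e-04, 1.04e-05, 2.55e-08, 0.0161 and 2.76e-04). Nop10, a small core protein, rose at GV (0.55), at MII (1.12) and in p20 dcKO (0.74), with edgeR adjusted p of 0.00938, 1.08e-07 and 0.00376. Naf1, an assembly factor, rose at GV3h (0.78) and in adult RiboMinus data (0.70), with adjusted p of 0.001 and 0.00748.

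Of 12 assembly and transport factors, 2 were higher and 4 lower at GV, 5 and 3 at GV3h, 5 and 2 at MII (27.3% and 14.8% of all genes), 2 and 1 in adult RiboMinus data, and 6 and 3 in p20 dcKO. Nufip1, a factor for box C/D assembly, rose by 0.58, 0.82 and 0.83 at the 3 poly(A) stages and by 1.14 in adult RiboMinus data (edgeR adjusted p 1.89e-04, 1.41e-07, 1e-07 and 9.41e-06). Phax, an RNA export adaptor, rose by 0.90 at GV and 0.83 at MII (adjusted p 1.77e-06 and 2.98e-06). Tgs1, which trimethylates the cap of small RNAs, and Ncbp1, a subunit of the cap-binding complex, rose by 1.87 and 1.67 in p20 dcKO (adjusted p 1.77e-09 and 8.25e-08). Nolc1 fell by 0.44 at GV3h and 0.19 in adult RiboMinus data (adjusted p 3.12e-05 and 0.0222). In p20 Dis3 cKO and p20 Exosc10 cKO, Ncbp2 was the 1 gene called (0.52 and 0.37, adjusted p 3.17e-04 and 0.0144).

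Of 13 genes for tailing, trimming and exosome adaptors, 3 were higher and 0 lower at GV, 4 and 2 at GV3h, 4 and 2 at MII (27.3% and 14.8% of all genes), 4 and 2 in adult RiboMinus data, and 4 and 5 in p20 dcKO. Srrt, which links the cap-binding complex to the exosome, was higher in all 7 knockout comparisons. Its log2 fold changes were 1.79, 2.31 and 1.70 at the poly(A) stages, 1.85 in adult RiboMinus data, 0.55 in p20 Dis3 cKO, 0.71 in p20 Exosc10 cKO and 1.42 in dcKO (edgeR adjusted p between 2.42e-14 and 2.72e-04). Zfc3h1 rose by 0.56 at GV and 0.38 in adult RiboMinus data (adjusted p 0.00109 and 0.00165). Tent4b, a poly(A) polymerase that tags nuclear RNA, fell by 0.53 at MII and 0.74 in p20 dcKO (adjusted p 9.18e-04 and 7.94e-10).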

How the data were processed

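RNA of single oocytes was measured in 71 poly(A) and 48 RiboMinus libraries. Per the labels' protocols, poly(A) RNA was taken from each lysate with oligo-dT beads after ERCC spike-in RNA had been added, and the RiboMinus libraries were made with the Ovation Solo kit and random hexamers. The peak lists of the series were not used here. The series' design text gives 16 GV Dis3 cKO oocytes for poly(A), of which 15 were analysed here. The authors deposited whole-number read counts per gene, not normalized, with ERCC counts beside them. The submitters' processing notes name cutadapt 2.5, FastQC 0.11.8, STAR 2.7.2a, SAMtools 1.9, HTSeq 0.9.1, R 3.5.1 and DESeq2 1.24.0 and the build mm10. Use of strand, the handling of reads over more than 1 gene and the annotation release are not given in the sources used here.

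Counts were tested with edgeR 4.0.16 in R 4.3.3 by the quasi-likelihood F test with TMM scaling, filterByExpr by group and Benjamini-Hochberg adjustment over all genes tested, 2-sided, at a threshold of 0.05. The 71 poly(A) libraries shared 1 fit, as did the 16 adult and the 32 p20 RiboMinus libraries. Comparisons between ages used all 48 RiboMinus libraries, and those between assays the 39 GV libraries. SEs were obtained by dividing each log2 fold change by √F. CPM are counts per 1000000 gene counts. Alternatives were ERCC scaling, RLE scaling, DESeq2 1.42.0, no filter, a mean of 0.5 CPM as a filter, fits of the 2 groups compared, the title number as a replicate block, sums per title tag, and leaving out MII Dis3 cKO egg 15. The comparison of the Dis3 effect between ages was added after seeing the data. Scripts were tested on simulated counts, and the reported values leave out no library.

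Named are the hosts tested, up to 6 snoRNAs called in each comparison of a knockout with its control, the 5 snoRNAs with the highest mean CPM in each assay, members called in opposite directions, and, among pathway genes, the 2 with the smallest adjusted p per list. Other snoRNAs named were chosen after their values were seen. Members, lists and rules were chosen with earlier results of these data known. Positions come from the RefSeq table (GRCm38.p6), which has no strand column, so containment is by position alone.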

Additional observations from a re-analysis of the deposited data

Results flagged for a closer look

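Of 180 member and group combinations examined, 19 had 1 oocyte far from the other 7 of its group, where chance gives about 1 in 20. In poly(A) GV3h controls, oocyte 1 stood apart for Snhg1 (13.7 CPM, next 9.07) and for Snhg9 (0.351 CPM, next 0.115). Among RiboMinus snoRNAs, single high oocytes held 2.79 CPM of Snord118 in p20 Exosc10 cKO (next 1.05), 5.89 CPM of Snord17 in p20 dcKO (next 2.53) and 1.11 CPM of Snord83b in p20 Dis3 cKO (next 0.369). Snord93 had a single low oocyte in adult Dis3 cKO, at 0.0621 CPM against 0.508 for the next.

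Hosts with 1 high oocyte in RiboMinus data were mostly those of low level. Snhg11 reached 8.36 CPM in 1 adult control (next 2.97) and 0.942 CPM in 1 p20 dcKO oocyte (next 0.381). Snhg12 reached 0.604 CPM in 1 p20 control (next 0.254) and 1.17 CPM in 1 p20 Exosc10 cKO oocyte (next 0.528). Snhg15 had such an oocyte in all 4 p20 groups, at 0.967 CPM in controls (next 0.442), 4.11 CPM in dcKO (next 1.30), 1.94 CPM in Dis3 cKO (next 1.09) and 2.21 CPM in Exosc10 cKO (next 1.00). Snhg3 reached 1.25 CPM in 1 p20 Dis3 cKO oocyte (next 0.421) and Snhg8 reached 0.810 CPM in 1 p20 control (next 0.166). Snhg9 reached 2.92 CPM in 1 adult Dis3 cKO oocyte (next 1.68), 1.82 CPM in 1 p20 dcKO oocyte (next 0.913) and 0.391 CPM in 1 p20 Dis3 cKO oocyte (next 0.103).

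The Dis3 effect differed between MII and GV, by the edgeR interaction test, for Snora47 (2.65 on the log2 scale), Snhg9 (2.46), Snhg6 (1.85), Snhg18 (1.05), Gas5 (1.03) and Snhg3 (-1.72). It differed between adult and p20 RiboMinus oocytes for Snora47 (1.33), Snhg14 (1.30) and Snhg18 (1.29). All 3 calls between ages were lost with ERCC scaling and with sums per tag. Between MII and GV, the Snhg9 call was lost in 5 of 7 alternatives, and those of Snhg18 and Snhg3 in 1 each. Of all genes, 9.28% had a larger and 3.88% a smaller effect at MII. Between ages, 5.34% were larger and 3.98% smaller in adults.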

How the results depend on the processing

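Counts of members called stayed within 1.5 times the value reported in 187 combinations of result and alternative, and 39 moved further. Of 628 values of called members under alternatives, 546 kept the call and 82 lost it. Members without a call gained one in the same direction in 31 cases, and 8 values reversed, 7 of them to a call in the other direction. With ERCC scaling, the snoRNA count moved from 0 to 1 in poly(A) GV Dis3 cKO, from 3 higher to 7 lower in adult RiboMinus Dis3 cKO, from 1 to 0 in p20 dcKO, from 2 to 0 for dcKO against Dis3 cKO, from 15 to 8 between control ages and from 1 to 0 for the difference of the Dis3 effect between ages. The host count moved from 1 to 0 between GV3h and GV controls, from 7 to 11 between MII and GV controls, from 0 to 1 in p20 Dis3 cKO, from 1 to 0 in p20 Exosc10 cKO, from 1 to 9 between control ages and from 2 to 0 for the Dis3 effect between ages. This scaling shifts every gene by the ratio of gene to ERCC counts, and it reversed Gas5 (-1.38), Snhg1 (-1.16), Snhg5 (-1.69), Snhg6 (-1.18), Snora47 (-1.68) and Snora73a (-1.22) between control ages, and Snhg10 (-0.56) and Snhg3 (-1.64) between MII and GV controls. DESeq2 gave 1 snoRNA at GV, 2 hosts between GV3h and GV controls, 1 host in p20 Dis3 cKO and 2 snoRNAs for dcKO against Exosc10 cKO, as did RLE scaling for the last. Without a filter, snoRNA counts were 3 at GV, 6 at GV3h, 7 at MII and 6 between MII and GV controls, of 107 tested. They were 5 in p20 dcKO and 4 for dcKO against Exosc10 cKO, of 57 tested, and 29 of 62 between control ages. Of all genes, 4425, 8468, 8893 and 11565 of 40237 were called in these poly(A) comparisons. In the RiboMinus ones 10556 and 9694 of 35778 were called, and 3234 of 38462 between control ages. Without a filter 0 hosts differed between GV3h and GV controls, where 329 of 40237 genes did. The filter on a mean of 0.5 CPM gave 1 snoRNA at GV. Fits of 2 groups gave 3 hosts between GV3h and GV controls and 0 snoRNAs for dcKO against Dis3 cKO. Sums per tag gave 0 snoRNAs and 0 hosts in adult Dis3 cKO and for the Dis3 effect between ages, 0 hosts in p20 Exosc10 cKO, 0 snoRNAs in the 3 dcKO comparisons, and 7 snoRNAs between control ages. With 2 sums per group fewer residual degrees of freedom remain, and that setting called 0 of all 15334 genes in adult Dis3 cKO, 0.405% for the Dis3 effect between ages and 1.78% between control ages. Title numbers did not pair the libraries: same-numbered libraries correlated at -0.312 to 0.219 in their deviations from the group means. With the replicate block, 3 hosts in place of 5 differed in their Dis3 effect between MII and GV, and 1 snoRNA in place of 2 between dcKO and Dis3 cKO, while other counts stayed within 1.5 times. Adult RiboMinus tags share no number between genotypes, so no block was fitted there. The snoRNAs had few counts, with 137 under 100 poly(A) counts in all, and the part of sequencing depth in this was not tested.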

Other observations

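Other small noncoding RNAs that are not members were set beside the members as levels, without a test. Terc, the RNA subunit of telomerase, was listed at 0 in all 8 GV3h controls and all 8 MII controls. It stood at 0.242 to 3.08 CPM (median 1.13) in the 16 GV3h Dis3 cKO oocytes and at 0 to 0.825 CPM (median 0.227) in the 16 MII Dis3 cKO eggs. At GV it stood at 0 to 0.1095 CPM (median 0) in controls and at 0 to 3.94 CPM (median 0.407) in Dis3 cKO. Rn7sk, the 7SK RNA that holds back a transcription elongation factor, stood at 0.278 to 3.10 CPM (median 2.12) in poly(A) GV controls and at 3.32 to 13.4 CPM (median 5.99) in GV Dis3 cKO, without overlap (2.33% of all genes tested). At GV3h its groups overlapped, at 1.40 to 4.12 CPM (median 2.98) in controls and 3.36 to 8.21 CPM (median 6.62) in Dis3 cKO. They also overlapped at MII, at 1.31 to 4.84 CPM (median 3.24) in controls and 1.18 to 22.2 CPM (median 2.89) in Dis3 cKO. In RiboMinus data Rn7sk overlapped at both ages, at 11.6 to 40.6 CPM (median 20.2) in adult controls and 9.27 to 48.4 CPM (median 30.98) in adult Dis3 cKO. Its median was 5.61 CPM in p20 controls and 4.68 CPM in dcKO.

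Rpph1, the RNA subunit of RNase P, was abundant enough for RiboMinus data. It stood at 3.95 to 7.13 CPM (median 5.77) in adult controls and 7.66 to 36.5 CPM (median 14.8) in adult Dis3 cKO. At p20 it stood at 3.55 to 5.55 CPM (median 4.54) in controls, 3.70 to 8.21 CPM (median 5.01) in Dis3 cKO, 1.37 to 8.30 CPM (median 3.41) in Exosc10 cKO and 7.77 to 16.6 CPM (median 10.9) in dcKO. Adult Dis3 cKO and p20 dcKO oocytes did not overlap their controls, while both p20 single knockouts did. Of all genes tested, 4.63% had every adult Dis3 cKO oocyte above the highest control, and no such share was computed for dcKO. Rmrp, another of these RNAs, had 2 gene IDs, 1 of them listed at 0 in all RiboMinus libraries. The other stood at 0.159 to 8.60 CPM (median 3.87) in p20 controls and 8.83 to 25.2 CPM (median 14.4) in dcKO. Its other knockout groups overlapped their controls, with medians of 9.70 CPM in p20 Exosc10 cKO and 1.93 CPM in adult Dis3 cKO (1.09 in controls).

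The small Cajal body RNAs, which guide modification of spliceosomal RNAs, showed no shared direction in RiboMinus data. Scarna13 was lower in median in p20 dcKO, at 9.90 to 22.9 CPM (median 15.5) against 19.6 to 34.9 CPM (median 26.2) in controls, and stood at medians of 13.9 CPM in adult controls and 16.6 CPM in adult Dis3 cKO. Scarna6 had medians of 0.726 CPM in p20 dcKO and 1.25 CPM in p20 controls, and Scarna2 of 8.25 and 5.49 CPM. In adults Scarna2 had medians of 13.5 CPM in Dis3 cKO and 7.56 CPM in controls. Scarna3a and Scarna10 had p20 medians of 1.20 and 1.78 CPM in dcKO against 1.30 and 2.20 CPM in controls. For each of these 5 the dcKO and control ranges overlapped.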
